A study of Bos taurus with 57 samples.

Results

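The effect of plane of nutrition on gene expression in the anterior pituitary was set against its effect in the arcuate nucleus of the hypothalamus, across the genes expressed in both tissues. The libraries were taken by their tissue label, which gave 39 of the 57 libraries of the series: 9 from the anterior pituitary of calves on the high plane, 10 from the pituitary of calves on the low plane, and 10 from the arcuate nucleus on each plane. All calves were male Holstein Friesians, and each tissue was collected when they were 126 days old. The labels give an overall growth of 1.08 kg per day for the high plane and 0.5 kg per day for the low plane, while the design text of the series gives 1.2 kg per day for the high plane. Both tissues came from the same cohort of calves, but the labels do not name the calf, so the pituitary and arcuate libraries of a calf could not be tied together. Each library is single-end mRNA sequencing of a piece of frozen tissue, and its value for a gene is the number of reads counted to that gene. The genes carry Ensembl identifiers that the files do not pair with names, so genes are given by identifier, and the tissue labels could not be checked against the defining genes of each tissue.

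The arcuate nucleus is a group of neurons in the floor of the hypothalamus. Its cells respond to leptin, insulin and other signals of energy state and take part in the control of appetite and of gonadotrophin-releasing hormone. The anterior pituitary lies downstream of it and holds the endocrine cells that release growth hormone, prolactin, the gonadotrophins, thyrotrophin and adrenocorticotrophin. Together with the testes they form the hypothalamic-pituitary-testicular axis, through which nutrition in early life is known to bear on the age at puberty of bulls. In a piece of bulk tissue, fewer cells of a type and less RNA per cell cannot be told apart.

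The pituitary libraries held 6895844 to 27426173 counted reads and the arcuate libraries 898979 to 32009433. Of the 24616 genes listed, 14411 passed the low-count filter in the pituitary, 14757 in the arcuate nucleus and 13821 in both. A total of 7 libraries stood apart from the other 32. They were A57, A51 and A18 of the pituitary high plane, A10 and A47 of the pituitary low plane, and C6 and C33 of the arcuate low plane. None of the 10 arcuate libraries of the high plane was among them. The division was measured with a library score, the mean log2 CPM (reads for a gene relative to the scaled total of the library) of 200 genes that were picked in the testes libraries alone. The score lay between -1.79 and -0.98 in the 7 libraries and between 2.93 and 4.71 in the other 32. In the pituitary, 3273 of the 13821 genes (23.7%) were lower by more than 2 on the log2 scale in the libraries that stood apart, and 2300 genes (16.6%) were higher by more than 1. The same counts were 3481 (25.2%) and 2392 (17.3%) in the arcuate nucleus. Across genes, the difference between these libraries and the rest had a correlation of 0.966 between the tissues. The 5 pituitary libraries that stood apart listed 149 to 616 of the genes tested in both tissues at 0 counts, against 0 to 8 in the other 14. The 2 arcuate libraries had 136 and 589, against 0 to 354 in the other 18, where the shallowest library, C22, had 354.

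The score did not differ between the diets past the threshold in either tissue. High-plane pituitary libraries had a mean of 2.18 ± 2.89 (SD, n = 9) and low-plane ones of 3.03 ± 2.30 (SD, n = 10; difference 0.85, exact permutation test, 2-sided, p = 0.363). For the arcuate nucleus the means were 4.23 ± 0.38 (SD, n = 10) for high and 3.07 ± 2.35 (SD, n = 10) for low (difference -1.16, permutation test, 2-sided, p = 0.172). The sign of the difference was opposite in the tissues. The libraries that stood apart were 3 high and 2 low in the pituitary and 2 low in the arcuate nucleus. Without them the difference was 0.015 in the pituitary (exact permutation p = 0.903) and -0.072 in the arcuate nucleus (exact permutation p = 0.728). These libraries were set aside by their score, so the smaller differences follow largely from that choice.

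**Figure D1:**
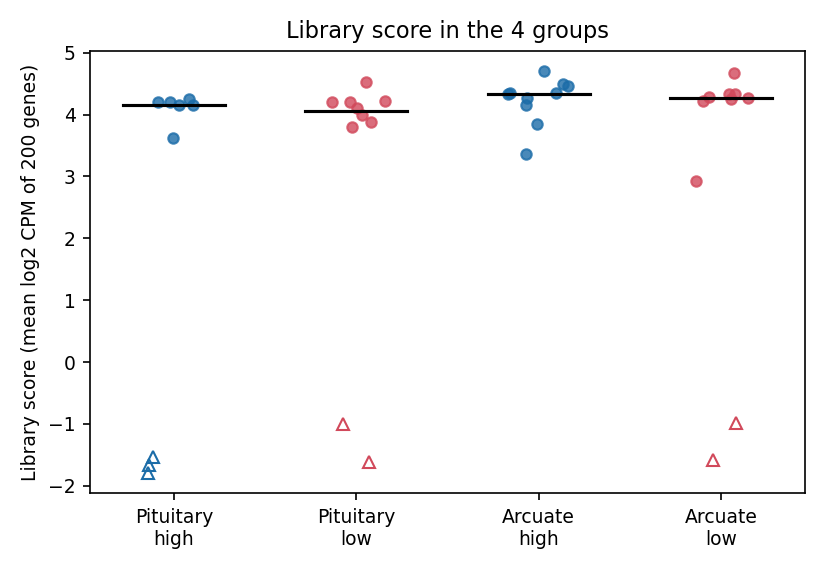
Library score (mean log2 CPM of 200 genes picked in testes libraries) of the 39 libraries, by tissue and plane of nutrition. Each point is a library, horizontal lines are group medians, and open triangles are the 7 libraries with a score below 0, of which 3 are pituitary high, 2 pituitary low and 2 arcuate low.

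With all 39 libraries and no allowance for the score, genes that were higher on the low plane in the pituitary tended to be lower on the low plane in the arcuate nucleus. The log2 fold changes (low against high) of the tissues had a Pearson correlation across the 13821 genes of -0.316, and a Spearman correlation of -0.499. The jackknife standard error over libraries, from leaving out each library in turn, was 0.481 for the Pearson correlation, which was smaller than its error, and 0.477 for the Spearman correlation, which was slightly larger than its error. Both log2 fold changes had the same sign in 3465 genes (25.1%, jackknife SE 21.6). The other genes were 5351 higher in the pituitary and lower in the arcuate nucleus, and 5005 lower in the pituitary and higher in the arcuate nucleus. The genes are not independent replicates, and within a tissue every gene shares the same libraries, so these values are descriptions with no test. The jackknife treats all libraries as independent, though both tissues came from the same cohort of calves.

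With the score as a covariate the sign of the correlation turned. It was 0.150 with a jackknife SE of 0.0489, and the Spearman correlation was 0.122 with a jackknife SE of 0.0917. The share of genes of the same direction was 53.8% (7435 genes, jackknife SE 4.84), with 4060 higher on the low plane in both tissues and 3375 lower in both. When the 7 libraries were left out instead, a choice made after seeing the data, the correlation was 0.154 (jackknife SE 0.0529) over 13976 genes and 54.4% of the genes (jackknife SE 4.42) had the same direction. The Spearman correlation was then 0.138 (jackknife SE 0.0909). With each library left out in turn, the correlation ran from -0.454 to -0.0763 with no score, from 0.132 to 0.169 with the score, and from 0.131 to 0.175 without the 7 libraries. The share of the same direction lay within its jackknife SE of 50% in both of the latter fits. With no score, the correlation weakened most without A57 (-0.0763), A18 (-0.118), A51 (-0.132) or C6 (-0.144), all libraries that stood apart, and leaving out A57 also gave the highest share of the same direction, 38.3%. Leaving out A10 (-0.449) or A47 (-0.454), which stood apart as well, made the correlation most negative.

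**Figure D2:**
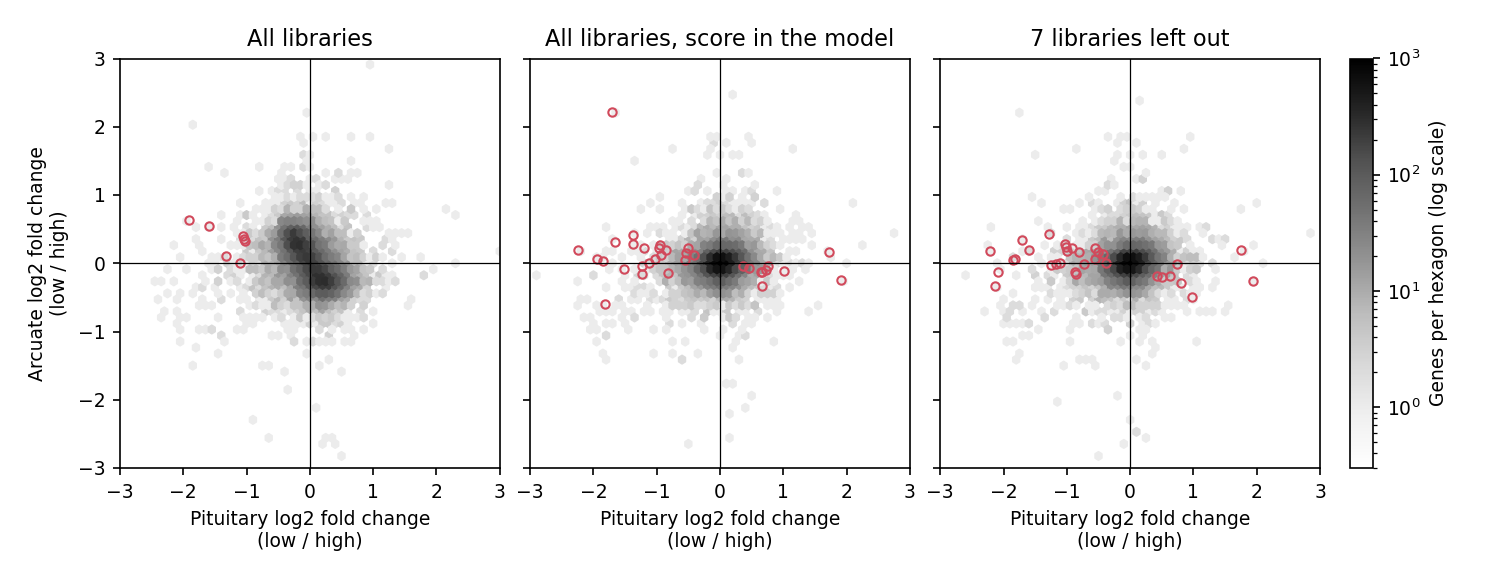
Log2 fold change (low against high) in the pituitary (x axis) and in the arcuate nucleus (y axis) for each gene tested in both tissues, with all libraries, with the score in the model, and with 7 libraries left out. Grey hexagons are shaded by the number of genes on a log scale and red rings are genes whose effect differed between the tissues (7, 33 and 32). The cloud slopes down in the first panel and is nearly round in the others, and 4, 5 and 5 genes beyond 3 on either axis are not drawn.

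With no score, the diet effects of both tissues followed how strongly a gene moved with the library axis, measured in the testes. The slope of a gene on the first scaling dimension of the testes libraries had a correlation of 0.482 with the diet effect of the pituitary and of -0.683 with that of the arcuate nucleus across 13467 genes when the score was not used. The score was built from the genes with the largest of these slopes, so values near 0 with the score (0.0360 and -0.0289) follow from its construction. Without the 7 libraries they were 0.0166 and -0.125. The genes were put into 5 groups of about equal size by that slope. With no score the share of the same direction was 13.9% in the group with the lowest slopes, 43.2% in the middle group and 15.2% in the group with the highest slopes. With the score it lay between 52.3% and 55.7% in all 5 groups, and without the 7 libraries between 52.8% and 55.8%. The genes were also grouped by their level in the pituitary minus that in the arcuate nucleus. With the score, the correlation of the diet effects was 0.0512 in the group with the lowest pituitary level relative to the arcuate nucleus and 0.225 in the group with the highest, against 0.0347 and 0.215 without the 7 libraries.

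The spread between libraries of a group also changed with the score. The common biological coefficient of variation, edgeR's estimate of the relative spread of a gene's true level between libraries, was 0.533 in the pituitary and 0.415 in the arcuate nucleus with no score, and 0.185 and 0.262 with it. The median absolute log2 fold change over the genes tested in both tissues was 0.201 in the pituitary and 0.249 in the arcuate nucleus with no score. With the score it was 0.122 and 0.0817, and without the 7 libraries 0.129 and 0.0843. The order of the tissues by this median therefore turned. The median standard error was 0.256 in the pituitary and 0.218 in the arcuate nucleus with no score. With the score it was 0.105 and 0.139, and without the 7 libraries 0.1065 and 0.130. It was larger than the median effect in the pituitary with no score. In the arcuate nucleus it was larger with the score and without the 7 libraries.

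In the pituitary, diet changed 81 of 14411 genes (0.562%) with no score, 1277 (8.86%) with the score and 833 of 14563 (5.72%) without the 7 libraries, at a false discovery rate (FDR, Benjamini-Hochberg) below 0.05 in edgeR's quasi-likelihood test. All 81 genes were among the 1277, and 80 of them were among the 833. The longer lists shared 665 genes, 52.1% of the list with the score and 79.8% of the list without the 7 libraries. With no score, leaving out A52, A35 or A14 lowered the count to 48, 49 or 53. With the score it was 844 without A23, and without the 7 libraries it was 462 when A23 and 539 when A52 was also left out. In the arcuate nucleus no gene passed that threshold in any of these 3 fits (0% of 14757 genes with and without the score, and 0% of 14874 without the 7 libraries). Of the genes tested in both tissues, 1397 had an unadjusted p below 0.05 in the arcuate nucleus with no score, of which 1178 were higher on the low plane, against 474 with the score and 517 without the 7 libraries. DESeq2 called 1 arcuate gene with no score, 8 with the score and 3 without the 7 libraries, and limma voom called 0 in each.

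In all 3 fits a higher share of the genes called in the pituitary than of all genes had the same direction in the arcuate nucleus, by about the size of the jackknife SE of that share. With the score, 760 of the 1207 called genes that were tested in both tissues (63.0%, jackknife SE 9.13) had the same direction, beside 53.8% of all genes. The figures were 523 of 783 (66.8%, jackknife SE 10.6) without the 7 libraries, beside 54.4%, and 40 of 66 (60.6%, jackknife SE 27.5) with no score, beside 25.1%. Raised and lowered genes had similar shares, 62.9% of 684 and 63.1% of 523 with the score. The arcuate effects were small. The median log2 fold change in the arcuate nucleus was 0.04 for the genes raised in the pituitary and -0.04 for those lowered, beside medians of 0.36 and -0.48 in the pituitary itself.

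The genes lowered most in the pituitary had larger arcuate fold changes, none of which passed the FDR threshold in edgeR. With the score, 94 genes called in the pituitary and tested in both tissues were lowered by more than 1 on the log2 scale (median -1.44). In the arcuate nucleus 68 of these (72.3%, jackknife SE 11.05) were also lower, with a median log2 fold change of -0.35 (jackknife SE 0.169), beside 0.0036 over all genes. An unadjusted arcuate p below 0.05 was found in 29 of the 94 genes (30.9%, jackknife SE 15.3), beside 3.43% of all genes, and 27 of the 29 were in the same direction. Without the 7 libraries 71 of 90 such genes (78.9%, jackknife SE 10.3) were lower in the arcuate nucleus, and 30 of the 90 (33.3%, jackknife SE 14.6) had an unadjusted p below 0.05, all 30 of them lower. Of the 26 genes raised by more than 1 in the pituitary with the score, 19 (73.1%, jackknife SE 20.75) were also higher in the arcuate nucleus, and 4 had an unadjusted p below 0.05. Their median arcuate log2 fold change was 0.13, smaller than its jackknife SE of 0.259.

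**Figure D3:**
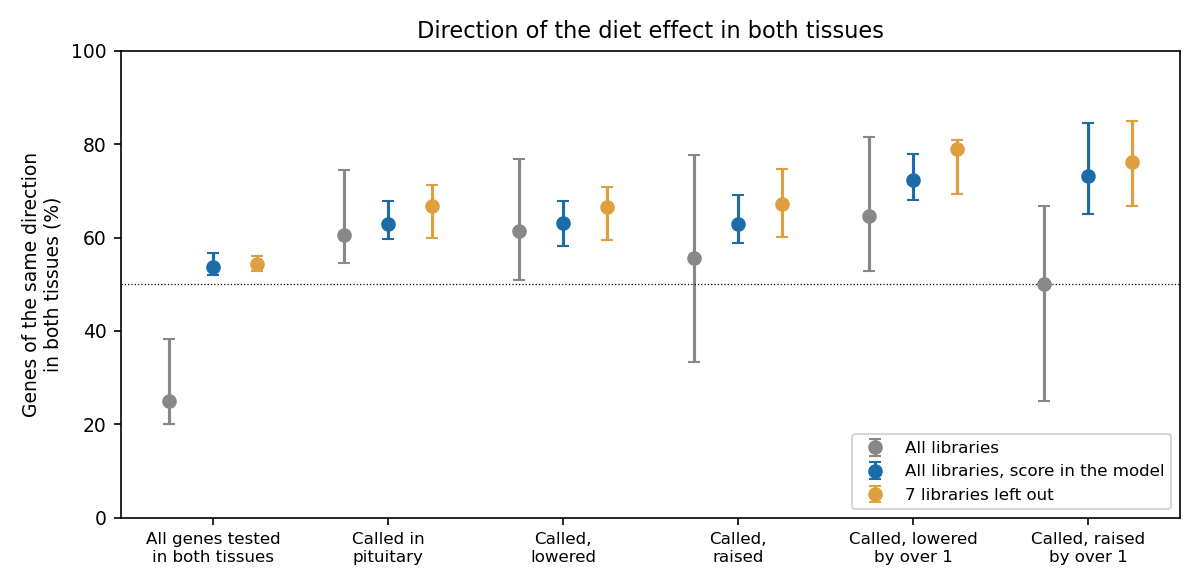
Share of genes with the same direction of the diet effect in both tissues (y axis, percent) for all genes tested in both and for genes called in the pituitary at an FDR below 0.05, by direction and by a log2 fold change above 1 in size. Points are the value with all libraries, with the score in the model and with 7 libraries left out, bars run from the lowest to the highest value when each library is left out in turn, and the dotted line is 50%. For all genes the share is 25.1%, 53.8% and 54.4%.

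The level of these genes in each library showed how far the arcuate values rested on a single library. Over the 90 genes lowered by more than 1 in the pituitary without the 7 libraries, the 10 arcuate libraries of the high plane had a mean log2 CPM of 1.61 to 2.70, with a median of 1.79. The 8 of the low plane had 1.42 to 1.73, with a median of 1.62. The groups overlapped, and the highest value belonged to C44, with the next at 2.01. Leaving out C44 moved the median arcuate log2 fold change of the genes from -0.38 to -0.18, the share of the same direction to 69.3% and the share with an unadjusted p below 0.05 to 19.3%. With the score the same step gave -0.21, 68.1% and 20.2%. C44 held 30565692 reads and its score of 4.71 was the highest of all libraries, and the part of these in the result was not tested. In the pituitary, whose values chose these genes, the levels were 2.36 to 2.64 on the high plane and 0.55 to 1.75 on the low plane.

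For the 21 genes raised by more than 1 in the pituitary, the arcuate level was 2.47 to 3.08 in high-plane libraries, with a median of 2.77, and 2.82 to 3.15 in low-plane libraries, with a median of 3.02. These groups overlapped as well.

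**Figure D4:**
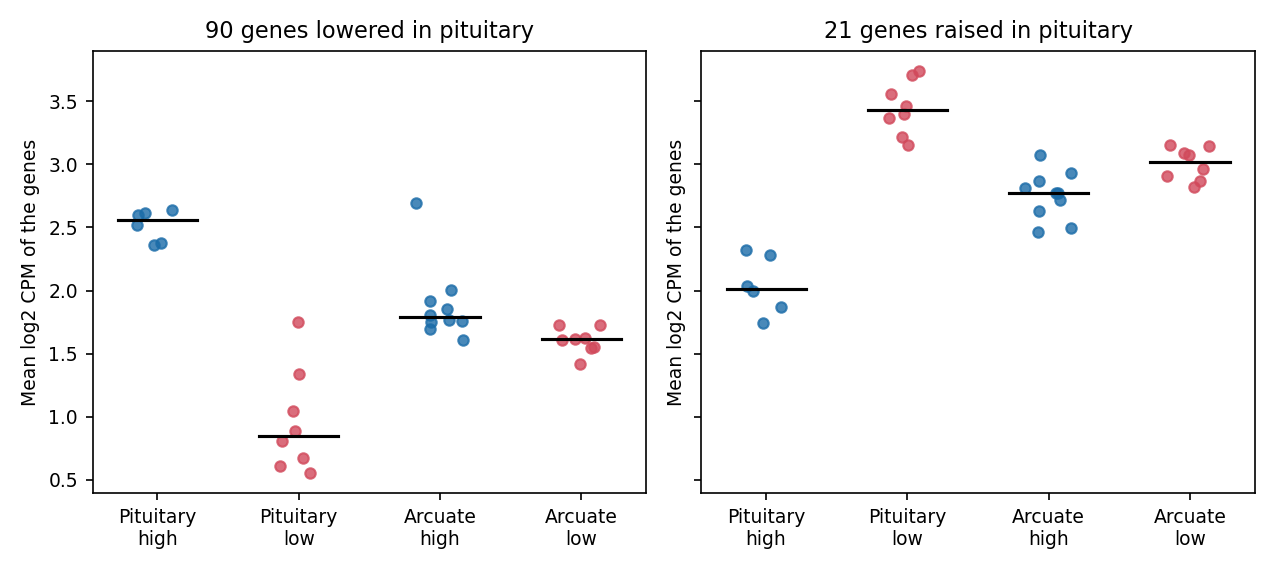
Mean log2 CPM (y axis) of the 90 genes lowered and the 21 genes raised by more than 1 on the log2 scale in the pituitary, in each of the 32 libraries left when 7 are set aside, with group medians as lines. The pituitary groups are apart because their values chose the genes. In the arcuate nucleus the groups overlap, and a single high-plane library, C44, lies at 2.70 in the panel of lowered genes.

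Among the genes with an unadjusted p below 0.05 in both tissues, 113 of 138 (81.9%) had the same direction with the score, beside 53.8% of all genes. Without the 7 libraries it was 124 of 159 (78.0%), beside 54.4%, and with no score 53 of 100 (53%), beside 25.1%. The lists with and without the score shared 43 genes, 43% of the shorter and 31.2% of the longer. Of the 13821 genes, 974 had such a p in the pituitary and 1397 in the arcuate nucleus with no score. With the score these were 3317 and 474. Whether the joint lists were longer than these counts alone would give was not tested, and no jackknife SE was computed for their shares.

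A difference between the diet effects of the tissues was tested directly, as an interaction of tissue and diet in a fit of all 39 libraries. It was found in 7 of 13821 genes (0.0506%) with no score, in 33 (0.239%) with the score and in 32 of 13976 (0.229%) without the 7 libraries. The 7 genes were in both of the other lists, which shared 20 genes (60.6% and 62.5%). The effect was larger in the pituitary in 7 of 7, 32 of 33 and 32 of 32 genes. Every gene of the 3 lists was also called in the pituitary fit, beside 66 of 13821, 1207 of 13821 and 783 of 13976 over all genes. The difference was below 0, that is, the low plane lowered the gene further in the pituitary, in 7 of 7, 23 of 33 and 24 of 32. The signs were opposite in the tissues in 7, 27 and 24 of them. Over all genes tested in both tissues they were opposite in 10356 of 13821, 6386 of 13821 and 6375 of 13976. A choice by a large difference itself favours opposite signs and a large effect in a single tissue. All of these counts therefore follow in part from that choice. The share of all genes with a larger pituitary effect, or with a difference below 0, was not counted. Over all genes the median absolute log2 fold change with the score was 0.122 in the pituitary and 0.0817 in the arcuate nucleus. With the score the median absolute log2 fold change of the 33 genes was 1.02 in the pituitary and 0.145 in the arcuate nucleus, and 4 of them had an unadjusted arcuate p below 0.05.

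The number of such genes moved with single libraries. With the score it was 20 without A23, 68 without A27, 56 without C44 and 63 without C6, and between 23 and 47 without any other library. Without the 7 libraries it was 55 when A27, 21 when C3 and 20 when C43 was also left out. With no score it changed by more than 1.5 times for 18 of the 39 libraries. It was 2 without any of A51, A18, A52, A14, A46, A40, A35, C25, C60 and C33, 3 without A57 or A19, and 4 without A4 or C16. It was 12 without A29, 13 without A11, 17 without C44 and 21 without A27.

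The genes with the smallest p in this test were lowered in the pituitary, and no arcuate change of theirs passed the threshold. Values of single genes are CPM scaled within each tissue, so they are compared between diets and not between tissues. ENSBTAG00000009150 had 32.7 to 76.3 CPM (median 56.2) in the pituitary on the high plane and 17.9 to 36.7 (median 27.4) on the low plane. Its arcuate values were 79.1 to 148.7 CPM (median 105.1) on the high plane and 95.2 to 122.4 (median 106.5) on the low plane. The pituitary groups overlapped in their middle range, with 7 of the 10 low-plane libraries below every high-plane library, and the arcuate low-plane libraries all lay within the range of the high plane. Its log2 fold change was -1.10 ± 0.17 (SE) in the pituitary and 0.0048 ± 0.11 in the arcuate nucleus, and the difference of -1.12 ± 0.19 had an FDR of 0.00866 with no score, 0.00403 with the score and 0.0130 without the 7 libraries (edgeR).

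ENSBTAG00000002699 was also lower on the low plane in the pituitary, at 11.8 to 58.4 CPM (median 18.5) against 4.59 to 11.4 (median 7.50), and there the groups did not overlap. The highest value was that of A57, a library that stood apart. The arcuate libraries had 16.5 to 53.01 CPM (median 28.5) on the high plane and 17.7 to 83.0 (median 45.9) on the low plane, and these groups overlapped. The log2 fold changes were -1.60 ± 0.28 (SE) and 0.55 ± 0.25, and their difference had an FDR of 0.00866 with no score, 0.00452 with the score and 0.0130 without the 7 libraries (edgeR). The difference passed the threshold for both ENSBTAG00000009150 and ENSBTAG00000002699 in each of the 39 fits that left out a library, with and without the score. Both genes were picked by the p of this test in the same libraries, so these fits show stability and are no independent support.

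For another pair of genes edgeR found the difference with the score and without the 7 libraries, but not with no score. ENSBTAG00000038854 had 0.472 to 45.3 CPM (median 20.9) in the pituitary on the high plane and 0.344 to 9.29 (median 5.53) on the low plane, with the lowest values of both diets in libraries that stood apart. Among the other 14 pituitary libraries it had 9.79 to 45.3 CPM on the high plane and 2.73 to 9.29 on the low plane, with no overlap. In the 18 other arcuate libraries it had 20.7 to 51.5 CPM on the high plane and 18.6 to 79.8 on the low plane. The groups overlapped there. The difference of the log2 fold changes was -1.86 ± 0.81 (SE) with no score (FDR 0.304), -2.44 ± 0.37 with the score (FDR 0.00118) and -2.40 ± 0.40 without the 7 libraries (FDR 0.00606, edgeR). With limma voom, which gives each library a weight by its quality, the FDR was 0.00341 with no score.

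ENSBTAG00000002224 followed the same course. In the pituitary libraries that did not stand apart it had 4.44 to 7.25 CPM on the high plane and 0.619 to 2.90 on the low plane, and in the arcuate nucleus 5.19 to 13.5 and 6.48 to 14.03. The pituitary groups did not overlap and the arcuate groups did. Its difference had an FDR of 0.210 with no score, 0.00403 with the score and 0.00490 without the 7 libraries (edgeR), at -1.57 ± 0.45 (SE), -1.88 ± 0.31 and -1.91 ± 0.30.

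**Figure D5:**
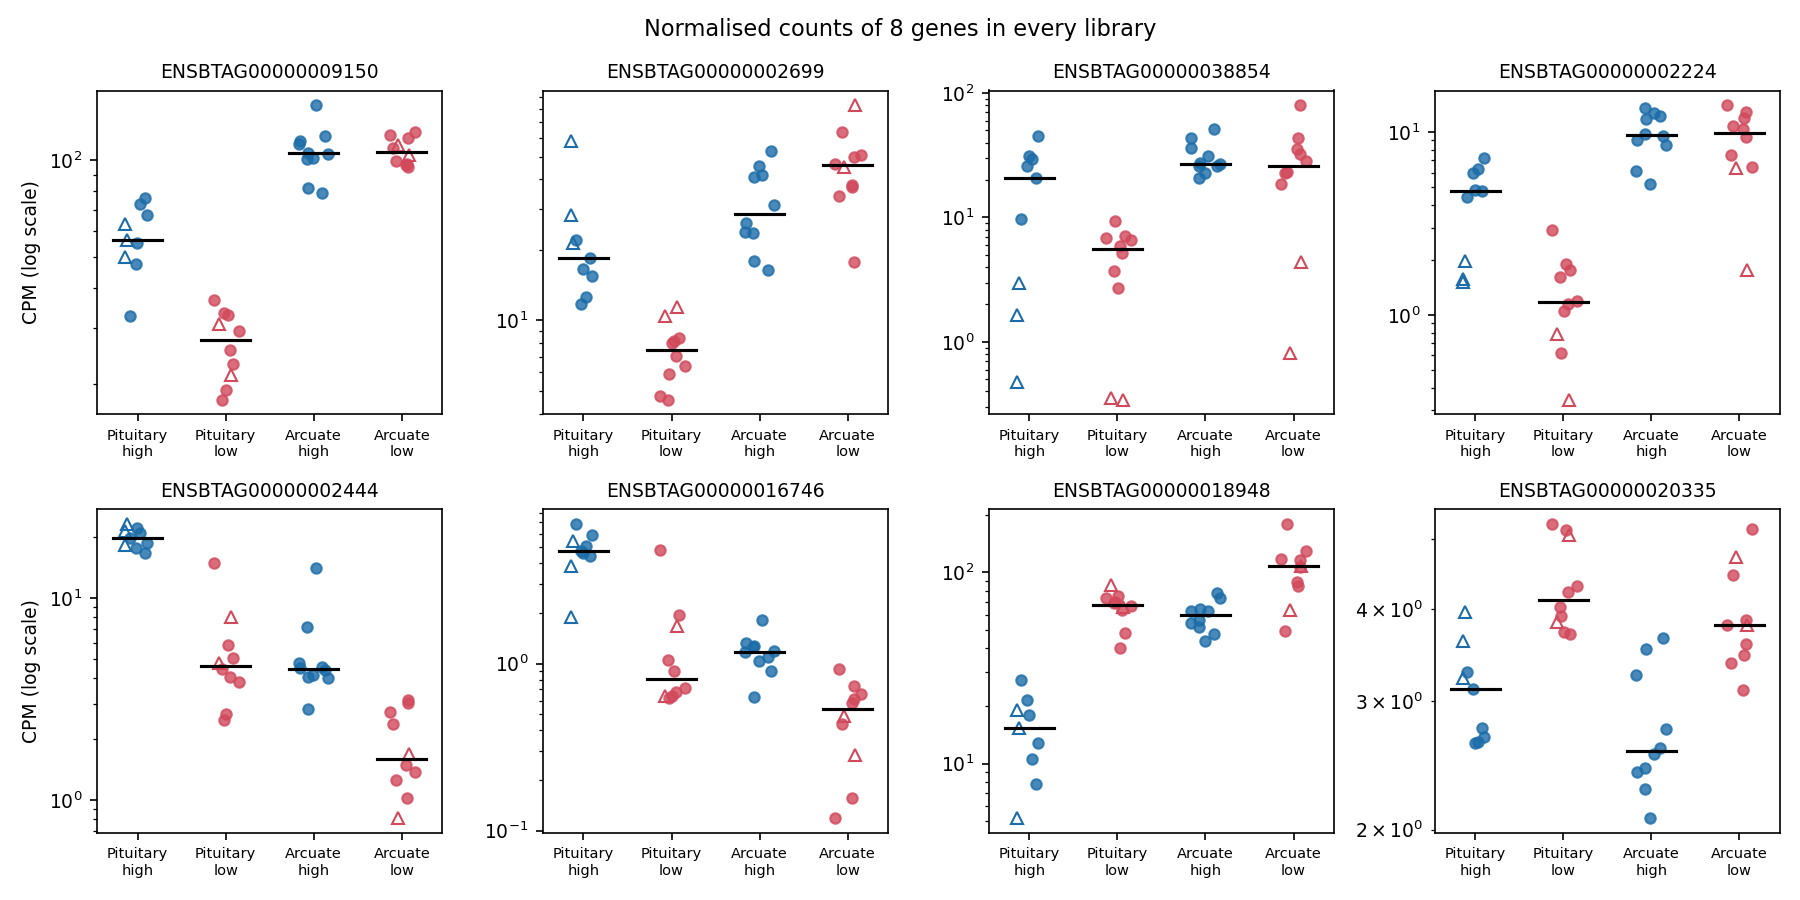
CPM on a log axis of 8 genes in each of the 39 libraries by tissue and plane of nutrition, with group medians as lines and the 7 libraries that stood apart as open triangles. The upper 4 genes had the smallest p for a difference between the diet effects without or with the score, with low-plane medians below high-plane medians in the pituitary. The lower 4 had small p in both tissues with the same direction, 2 lower and 2 higher on the low plane. CPM was scaled within each tissue.

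The named genes of the same direction, with the smallest p in both tissues, were picked for that direction. Their estimated fold change was larger in the pituitary, except for ENSBTAG00000020335 and ENSBTAG00000021933. ENSBTAG00000002444 had 16.7 to 23.3 CPM (median 19.7) in the pituitary on the high plane and 2.48 to 14.9 (median 4.61) on the low plane. Arcuate libraries had 2.81 to 14.03 CPM (median 4.43) and 0.813 to 3.12 (median 1.59). The pituitary groups did not overlap, and 8 of the 10 arcuate libraries of the low plane were below all of the high plane. The log2 fold change was -1.82 ± 0.27 (SE) in the pituitary (FDR 0.00322, edgeR) and -1.53 ± 0.30 in the arcuate nucleus (unadjusted p = 4.78e-05 and FDR 0.477 in edgeR), and the difference between them had an FDR of 0.652. The arcuate change passed the threshold with DESeq2 (FDR 0.0139), and was -1.24 without C44, the library with the highest arcuate value.

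ENSBTAG00000016746 was a scarce gene with the same direction. In the pituitary it had 1.89 to 6.87 CPM (median 4.70) on the high plane and 0.619 to 4.78 (median 0.809) on the low plane, with A27 alone at the upper end of the low plane. The arcuate nucleus had 0.634 to 1.83 CPM (median 1.18) and 0.119 to 0.931 (median 0.535). Both pairs of groups overlapped. Its log2 fold change was -1.79 ± 0.38 (SE) in the pituitary (FDR 0.0341, edgeR) and -1.19 ± 0.28 in the arcuate nucleus (unadjusted p = 0.000396 and FDR 0.477 in edgeR). The difference between the tissues was -0.60 ± 0.48 (SE) with no score and did not pass the threshold (FDR 0.499, edgeR).

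ENSBTAG00000018948 was raised by the low plane in the pituitary. It had 5.19 to 27.5 CPM (median 15.3) on the high plane and 40.4 to 85.5 (median 67.8) on the low plane there, with no overlap. Its arcuate values were 43.6 to 77.8 CPM (median 59.6) on the high plane and 49.2 to 179.8 (median 107.4) on the low plane, where 8 of the 10 low-plane libraries were above every high-plane library. The log2 fold change was 2.10 ± 0.25 (SE) in the pituitary (FDR 0.000405, edgeR) and 0.81 ± 0.18 in the arcuate nucleus (unadjusted p = 0.000217 and FDR 0.477 in edgeR), and the arcuate change passed the threshold with DESeq2 when the score was used (FDR 0.0101). The difference of 1.29 ± 0.30 did not pass the threshold in edgeR (FDR 0.0925 with no score, 0.0643 with the score and 0.155 without the 7 libraries, edgeR). It did pass with DESeq2 (FDR 0.0234 with no score and 0.0209 with it), with limma voom (0.00462 and 0.00541) and with the spread estimated in each tissue (0.0228 and 0.00983). The last of these also used a normal distribution in place of the quasi-likelihood test.

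ENSBTAG00000020335 had fold changes of like size in both tissues. Its pituitary values were 2.63 to 3.96 CPM (median 3.12) on the high plane and 3.70 to 5.24 (median 4.13) on the low plane, and its arcuate values 2.07 to 3.66 (median 2.56) and 3.10 to 5.16 (median 3.81). Both pairs of groups overlapped, and in each tissue 6 of the 10 low-plane libraries were above all of the high plane. The log2 fold change was 0.48 ± 0.13 (SE) in the pituitary (FDR 0.151 with no score and 0.00693 with it, edgeR) and 0.49 ± 0.15 in the arcuate nucleus (unadjusted p = 0.00349 and FDR 0.477 in edgeR). The difference between the tissues was -0.017 ± 0.18. With the score a further gene, ENSBTAG00000021933, had a positive effect in both tissues, but its arcuate value of 3.26 ± 0.91 (SE) rested on the low-plane library C8, at 84.1 CPM against at most 1.78 in the other 9, and was -0.14 without it.

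With the score, 25 of the 138 genes with an unadjusted p below 0.05 in both tissues had opposite directions, beside 6386 of all 13821. In edgeR no gene passed the FDR threshold in both tissues. ENSBTAG00000013400 had a median of 19.7 CPM in the pituitary on the high plane and 4.995 on the low plane, and of 1.17 and 3.46 in the arcuate nucleus. All groups overlapped, and the arcuate low plane included C13 at 41.2 CPM, with the next library at 6.51. Its difference of -3.89 ± 0.89 (SE) had an FDR of 0.0411 with the score, 0.109 with no score and 0.0826 without the 7 libraries (edgeR), of 0.00857 with no score in DESeq2, and was -2.48 without C13. With the score and each library left out in turn, it passed the threshold in 22 of 39 fits, with an FDR of up to 0.205 (edgeR).

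ENSBTAG00000038495 had medians of 82.1 and 51.7 CPM on the high and low plane in the pituitary and of 174.2 and 221.8 in the arcuate nucleus, with overlap in both tissues. The difference of its effects, -1.24 ± 0.29 (SE), had an FDR of 0.0925 with no score and 0.138 with the score (edgeR), and of 0.0173 and 0.0473 with DESeq2. ENSBTAG00000010347 differed by -0.70 ± 0.20 (SE) with the score (FDR 0.116 in edgeR and 0.0492 in DESeq2), with medians of 329.4 and 303.8 CPM in the pituitary and 113.0 and 161.6 in the arcuate nucleus. ENSBTAG00000005141 was the gene with the smallest p in the other sense, with medians of 2.52 and 4.32 CPM in the pituitary and 6.10 and 4.88 in the arcuate nucleus. Its difference of 1.14 ± 0.29 (SE) had an FDR of 0.123 with no score and 0.0963 with the score (edgeR), and of 0.0301 and 0.0288 with DESeq2. With the spread estimated in each tissue, the differences of ENSBTAG00000038495, ENSBTAG00000010347 and ENSBTAG00000005141 had an FDR of 0.0414, 0.0448 and 0.0241 with the score. The groups of ENSBTAG00000010347 and ENSBTAG00000005141 overlapped in both tissues.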

How the data were processed

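Counts per gene were those deposited by the authors, whole numbers for 24616 genes in each library. The submitters' processing notes name CASAVA 1.4, STAR, HTSeq and edgeR; the genome build and annotation are not given in the sources used here. Groups were taken from the tissue and diet labels.

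Genes were kept by edgeR's filterByExpr on diet in each tissue. Counts were scaled by TMM and tested with the quasi-likelihood test of edgeR 4.0.16 (R 4.3.3), low against high plane, within each tissue and as a tissue-by-diet interaction, with Benjamini-Hochberg adjustment over all genes tested. The score averaged log2 CPM, computed with a prior count of 2, over the 200 genes with the largest positive slopes on the first scaling dimension (500 genes) of the testes libraries, entered for each tissue. Libraries with a score below 0 were called apart. In the arcuate nucleus its slope therefore rests mainly on 2 libraries. Group means of the score were compared with scipy 1.17.1. Alternatives used limma 3.58.1 and DESeq2 1.42.0. With the spread estimated in each tissue, the difference of the within-tissue effects was divided by its combined standard error. This ratio was set against a normal distribution, which allows less for the number of libraries than the quasi-likelihood test. Counts and FDR of that setting therefore do not show the part of the spread estimate alone. The edgeR fits with no score were tested on simulated data. These had no library axis and a smaller spread between libraries than the real data with no score. The fits with the score and the jackknife were not tested in this way.

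The comparison, gene lists and tests were chosen with earlier results of these data known. The 13 genes given by identifier were picked with and without the score. Genes whose effects differed at an FDR below 0.05 were ranked by p. Genes of the same and of opposite direction were ranked by the larger p of both tissues. Each ranking was cut to its first few genes, and up to 2 in each direction were taken from these. The genes picked for a difference all had one below 0, though 10 of the 33 with the score had one above 0. The reference table paired 0 identifiers with a symbol, so the planned gene lists, marker genes and genes chosen by symbol were not analysed here. Each p-value measures the spread between libraries. The interaction test and the jackknife treat the pituitary and arcuate libraries as independent. An effect of a calf shared by its tissues is therefore not allowed for.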

Additional observations from a re-analysis of the deposited data

Results flagged for a closer look

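The difference between the diet effects of the pituitary and the arcuate nucleus passed the threshold of the interaction test (edgeR, FDR below 0.05) for 2 named genes with no score, ENSBTAG00000009150 (-1.12, FDR 0.00866) and ENSBTAG00000002699 (-2.16, FDR 0.00866). With the score it did so for ENSBTAG00000009150 (-1.13, FDR 0.00403), ENSBTAG00000002699 (-1.80, FDR 0.00452), ENSBTAG00000038854 (-2.44, FDR 0.00118), ENSBTAG00000002224 (-1.88, FDR 0.00403) and ENSBTAG00000013400 (-3.89, FDR 0.0411). All are pituitary minus arcuate, on the log2 scale. That of ENSBTAG00000013400 passed in only 22 of the 39 fits with the score that left out a library.

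Values of single libraries were searched for a gap to the rest of the group above Dixon's 95% critical value, in 64 groups of 9 or 10 libraries, and 11 were found. Chance alone flags about 1 group in 20. In 5 of them the library lay far from the others in an arcuate gene. ENSBTAG00000021933 had 84.1 CPM in C8 of the low plane (next 1.78) and 0 CPM in C22 of the high plane (next 0.959). ENSBTAG00000013400 had 41.2 CPM in C13 of the low plane (next 6.51), ENSBTAG00000038495 507.5 CPM in C6 of the low plane (next 265.2) and ENSBTAG00000002444 14.03 CPM in C44 of the high plane (next 7.21). In the pituitary, A27 of the low plane had the highest value of both ENSBTAG00000002444 (14.9 CPM, next 8.07) and ENSBTAG00000016746 (4.78 CPM, next 1.94), and A57 of the high plane had that of ENSBTAG00000002699 (58.4 CPM, next 28.1). Of the libraries themselves, C22 detected 14809 genes (next 17506) and C6 15693 (next 17116), and C41 held 27729419 reads (next 16556829).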

How the results depend on the processing

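No paired analysis was possible because the library numbers are unique over the series and the labels do not name the calf. With no score, the correlation of the diet effects turned to 0.160 with limma voom and quality weights and, in alternatives chosen after seeing the data, to 0.154 without the 7 libraries that stood apart, 0.196 with DESeq2 on the rest and 0.163 with limma voom on the rest. The share of the same direction was 52.5%, 54.4%, 54.3% and 52.7% in these fits. The pituitary counts were 1092, 833, 1484 and 1034 in the same order, and 275 with DESeq2 on all libraries. Genes whose effect differed numbered 144, 32, 101 and 92, 67 with DESeq2 on all libraries, 2 with the log2 total count as covariate and 38 with the spread estimated in each tissue. With the score these were 166 with DESeq2, 96 with limma voom, 137 with the spread of each tissue, 50 with the tissue's own first scaling dimension and 60 without the 7 libraries, and the correlation was 0.0648 with no filter on low counts. DESeq2 called 1 arcuate gene with no score, 8 with it and 3 without the 7 libraries. The cause of these moves was not tested. With each library left out in turn, the pituitary counts ran from 48 to 88 with no score and 844 to 1408 with it, the arcuate counts from 0 to 0 and 0 to 1 (C8), the differing genes from 2 to 21 and 20 to 68, the correlation from -0.454 to -0.0763 and 0.132 to 0.169, the share of the same direction from 20.1% to 38.3% and 51.9% to 56.7%, and the score difference between diets from 0.356 to 1.37 in the pituitary and -1.34 to -0.643 in the arcuate nucleus. Of the values of single genes under alternatives, 637 kept their direction and side of the threshold, 52 passed it newly, 8 lost it and 21 turned direction, none of the 21 past the threshold. In the order DESeq2, limma voom, no filter, CPM above 1 in every library, log2 total count and TMM within each tissue, the difference of ENSBTAG00000020335 with no score turned to 0.031, 0.15, 0.021, 0.11, 0.015 and 0.0068, and without the 7 libraries to 0.12 with edgeR, 0.15 with DESeq2 and 0.15 with limma voom. The difference of ENSBTAG00000021933 turned to 0.61 (no score) and 0.47 (with it) under limma voom, and to 0.58 under limma voom without the 7 libraries. The arcuate effects close to 0 also turned with no score. That of ENSBTAG00000009150 was -0.017 with no filter and -0.0595 with CPM above 1 in every library. That of ENSBTAG00000038854 was 0.18, 0.19 and 0.00034 without the 7 libraries with edgeR, DESeq2 and limma voom, and that of ENSBTAG00000002224 was 0.043, 0.034 and 0.014 in the same order and 0.0038 with limma voom on all libraries. The shallowest arcuate library, with 898979 reads, limits what can be said of scarce genes.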
